A study of Mus musculus with 6 samples.

Results

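The genes described are the 10 that encode enzymes turning serine into sphingolipids or phosphatidylserine: Sptlc1, Sptlc2, Sptssa, Kdsr, Cers2, Cers5, Cers6, Degs1, Ptdss1 and Ptdss2. They were taken by gene symbol from tables that list 21878 genes, and all 10 were found. RNA was sequenced from long-term hematopoietic stem cells (LT-HSCs) sorted from the bone marrow of wild-type mice as Lin-c-Kit+Sca1+CD34-CD135- cells, where CD135 is the product of Flt3. For 3 months the mice had eaten a control diet (CD, 3 libraries) or a diet free of serine and glycine (SGFD, 3 libraries). Strain, sex, age and the number of mice behind each library are not given in the sources used here, so p-values measure the spread between libraries, which may be partly technical.

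Sphingolipids are made in the endoplasmic reticulum. Serine palmitoyltransferase joins serine to palmitoyl-CoA, Kdsr reduces the product, ceramide synthases attach a second fatty acid, and Degs1 introduces the double bond that makes ceramide, from which sphingomyelin and glycosphingolipids are built. When serine is short the first enzyme can take alanine in its place and yields 1-deoxysphingolipids. Phosphatidylserine is made differently, by exchanging the head group of phosphatidylcholine or phosphatidylethanolamine for serine. In human cord blood stem cells, inhibition of DEGS1 has been linked to altered self-renewal.

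Between 18427138 and 19531159 fragments stood behind each library, as worked back from its FPKM values, a fragment count scaled by gene length and library size. Changes were tested as log2(FPKM + 1) with limma over 10620 genes that reached 1 FPKM in 3 libraries or more, with Benjamini-Hochberg adjustment and a threshold of 0.05. Of these, 59.4% passed, 17.7% higher and 41.8% lower with SGFD, and the median difference was -0.13 on the log2 scale. The balance depended on scaling: 29.7% of changed genes were higher as deposited, 51.8% after median-ratio scaling, 14.0% with equal library totals and 47.0% after quantile normalization, and the median moved to -0.01, -0.26 and -0.02. The labelled cell type was checked on markers: all 10 LT-HSC markers listed were above 0 in every library, but their summed level was 178 to 182 FPKM with CD and 87.4 to 87.9 FPKM with SGFD, with 7 of 9 tested lower. Transcripts of both antigens that the gate excludes were abundant, Cd34 at 419 to 488 FPKM and Flt3 at 86.9 to 115 FPKM. All 4 gate markers, Cd34, Flt3, Kit and Ly6a (Sca1), were called lower with SGFD. Their means with CD and SGFD were 471 and 429 FPKM for Cd34 and 114 and 90.5 FPKM for Flt3. For Kit the means were 122 and 71.4 FPKM, and for Ly6a 66.7 and 58.5 FPKM. All 6 granulocyte progenitor markers were higher with SGFD, their sum going from 869 to 899 FPKM to 3445 to 3829 FPKM, as were all 6 monocyte markers (64.9 to 65.9 against 217 to 232 FPKM). Macrophage markers summed to 8.08 to 9.70 FPKM with CD and 1.10 to 1.62 FPKM with SGFD, where all 4 tested were lower and all 4 had passed the filter through CD alone. All 6 neutrophil markers tested were higher, 3 of them having passed through SGFD alone, with sums of 12.5 to 12.7 against 37.6 to 40.2 FPKM. Lower were 3 of 4 tested erythroid markers (214 to 221 against 96.9 to 102 FPKM) and 3 of 4 tested B cell markers (27.4 to 36.9 against 25.5 to 26.4 FPKM). Of the 4 tested B cell markers, 2 had passed the filter through CD alone. Of 6 basophil and mast cell markers 3 were higher and 1 lower (80.9 to 86.8 against 88.4 to 94.9 FPKM), and of 3 tested megakaryocyte markers 1 was higher and 1 lower (46.9 to 51.6 against 49.3 to 50.9 FPKM). The T and NK cell list summed to 122 to 125 and 137 to 156 FPKM, with Nkg7 higher, Lck lower and Cd3e at 0 in all 6 libraries. The part of these markers in the results below was not tested, and in bulk libraries fewer cells of a type and less RNA per cell cannot be told apart.

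Among the 10 enzymes Sptlc2 rose, Kdsr and Cers5 fell, and the other 7 did not pass the test. All 10 passed the filter on low values, and none passed it through 1 diet alone, though Cers6 reached it in just 3 libraries (CD replicate 1 and SGFD replicates 1 and 2). With limma 1 of the 10 was higher, where 17.7% of all tested genes were, and 2 were lower, where 41.8% were. The diets did not overlap for these 3 genes alone, 1 higher and 2 lower, while 65.2% of tested genes did not overlap, 19.6% higher and 45.5% lower. The median difference over the 10 genes was -0.01, against -0.13 for all tested genes.

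**Figure D1:**
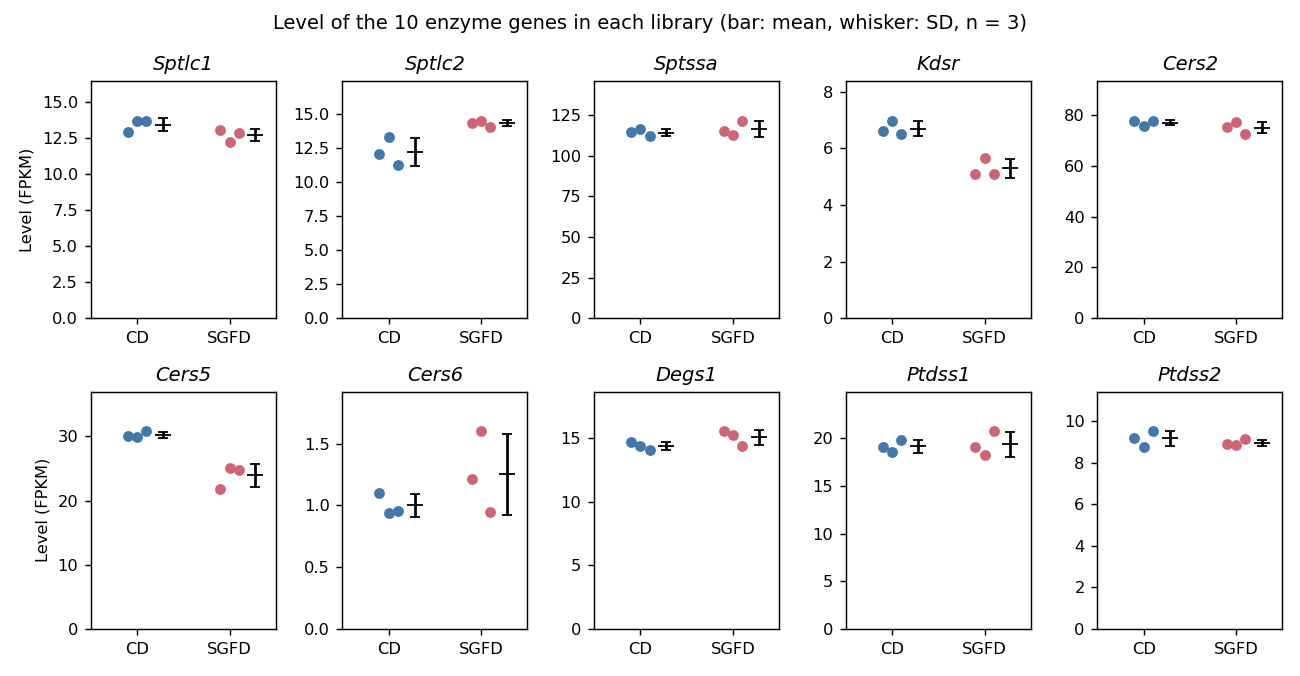
Level of each enzyme gene in FPKM (y axis, from 0) in the 3 CD and 3 SGFD libraries (points), with the mean and SD beside them. The points of the diets are apart for Sptlc2, Kdsr and Cers5 and overlap in the other 7 panels.

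Serine palmitoyltransferase is a complex of the large subunits Sptlc1 and Sptlc2 with a small subunit, here Sptssa; Sptlc2 carries the pyridoxal phosphate cofactor. In the mouse genome (GRCm38, GENCODE M21), Sptlc2 lies on chromosome 12 from 87305058 to 87388355, minus strand. Its level was 12.1, 13.3 and 11.3 FPKM in the CD libraries and 14.3, 14.5 and 14.1 FPKM in the SGFD libraries. All SGFD values lay above all CD values, and the CD libraries were the more spread. The mean rose from 12.2 ± 1.03 to 14.3 ± 0.226 FPKM (SD, n = 3 each), 1.17-fold, with a log2 difference of 0.22 ± 0.07 (SE; limma, adjusted p = 0.0207). That call was lost without CD replicate 1 (limma, adjusted p = 0.0619), CD replicate 3 (0.0954) or SGFD replicate 1 (0.0554), and with equal library totals (log2 difference 0.08, adjusted p = 0.329).

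Sptlc1 (chromosome 13, 53332748 to 53377397, minus strand) stood at 12.96, 13.7 and 13.7 FPKM with CD and 13.1, 12.2 and 12.8 FPKM with SGFD. The diets overlapped, and the limma difference of -0.07 ± 0.06 (SE) did not pass (adjusted p = 0.31), its 95% interval running from -0.21 to 0.06. With equal totals Sptlc1 was called lower (-0.21, adjusted p = 0.0132), and with median-ratio or quantile scaling its difference was above 0 without a call. Sptssa, the subunit that stabilises the complex and sets its chain-length preference, was the most abundant of the 10 genes at 114, 116 and 112 FPKM with CD and 115, 113 and 122 FPKM with SGFD. It overlapped too, at 0.03 ± 0.04 (SE) on the log2 scale (interval -0.07 to 0.12; limma, adjusted p = 0.599). Its direction was set by the scaling, since it was called higher after median-ratio scaling (0.16) and lower with equal totals (-0.12) and after quantile normalization (-0.13). Sptssa lies on chromosome 12 from 54645392 to 54656573, minus strand.

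Within a library, the balance of the large subunits is unaffected by any factor that scales a whole library. Sptlc2 made up 48.2%, 49.2% and 45.2% of the summed FPKM of Sptlc1 and Sptlc2 in the CD libraries and 52.2%, 54.3% and 52.3% in the SGFD libraries; the paralog Sptlc3 was at 0 in all 6. The share went from 47.5% ± 2.12 to 52.9% ± 1.16 (SD, n = 3 each), the groups not overlapping (exact two-sided permutation test, p = 0.1, the smallest that 3 against 3 allows; 0.15 adjusted over 3 shares tested). Which subunit leads depends on the gene length behind the FPKM values. Counted per base of the longest GENCODE transcript, a scale added after the data were seen, the share of Sptlc2 was 40.1% ± 2.04 with CD and 45.4% ± 1.16 with SGFD, again without overlap, and Sptlc1 was the higher of the pair in all 6 libraries.

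Kdsr, the 3-ketodihydrosphingosine reductase that makes sphinganine, lies on chromosome 1 from 106720459 to 106759727, minus strand. It had 6.61, 6.97 and 6.50 FPKM with CD and 5.10, 5.66 and 5.09 FPKM with SGFD. Every SGFD library was below every CD library. The mean fell from 6.69 ± 0.249 to 5.28 ± 0.323 FPKM (SD, n = 3 each), 21.1% lower, a log2 difference of -0.29 ± 0.08 (SE; limma, adjusted p = 0.00688). The call held without any 1 library, but not after median-ratio scaling (-0.17, adjusted p = 0.0615) or quantile normalization (-0.06, adjusted p = 0.512).

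Degs1, the dihydroceramide desaturase at the end of the route, lies on chromosome 1 from 182275772 to 182282804, minus strand. It was at 14.7, 14.3 and 14.0 FPKM with CD and 15.5, 15.2 and 14.3 FPKM with SGFD. The diets overlapped, and the difference of 0.06 ± 0.06 (SE) did not pass (interval -0.07 to 0.19; limma, adjusted p = 0.374), though it was called higher after median-ratio scaling (0.19, adjusted p = 0.0147) and quantile normalization (0.20, adjusted p = 0.0164). Relative to Degs1 in the same library, Kdsr was lower in every SGFD library: the log2 ratio of Kdsr to Degs1 was -1.15, -1.04 and -1.11 with CD and -1.60, -1.43 and -1.49 with SGFD. The longest transcript has 5518 bases for Kdsr and 2048 for Degs1. Such a ratio does not remove the trend with transcript length given below, and the part of length was not tested.

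Ceramide synthases differ in the fatty acid they attach. Cers2 makes very-long-chain ceramides, and Cers5 and Cers6 make those with palmitic acid. Cers5 (chromosome 15, 99734881 to 99772885, minus strand) had 30.1, 29.9 and 30.8 FPKM with CD and 21.8, 25.1 and 24.8 FPKM with SGFD. The CD libraries were close together and well above all SGFD libraries, of which replicate 1 was the lowest. Its mean fell from 30.3 ± 0.462 to 23.9 ± 1.79 FPKM (SD, n = 3 each), 21.0% lower, a log2 difference of -0.33 ± 0.06 (SE; limma, adjusted p = 0.000939). Cers5 was the only one of the 10 genes called in the same direction under all 13 alternatives run, its log2 difference lying between -0.20 with median-ratio scaling and -0.47 with equal totals among the scalings.

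Cers2 (chromosome 3, 95314791 to 95323599, plus strand) was the most abundant ceramide synthase, at 77.8, 75.7 and 77.6 FPKM with CD and 75.3, 77.2 and 72.7 FPKM with SGFD. These overlapped, with a difference of -0.04 ± 0.04 (SE; interval -0.13 to 0.05; limma, adjusted p = 0.441). It was called lower with equal totals (-0.18) and after quantile normalization (-0.14) and stood higher without a call after median-ratio scaling (0.10). Cers6 (chromosome 2, 68861441 to 69114282, plus strand) had 1.10, 0.939 and 0.956 FPKM with CD and 1.21, 1.60 and 0.946 FPKM with SGFD. SGFD replicate 2 was the highest and SGFD replicate 3 lay within the CD range. These 2 libraries also stood at opposite ends, 10.8 and -8.90, of the second principal component of all tested genes, which held 7.25% of the variance. The coefficient of variation of Cers6 was 26.2% with SGFD, where counting error alone at its lowest count of 363 fragments is 5.25%, and the difference of 0.16 ± 0.12 (SE) did not pass (interval -0.10 to 0.42; limma, adjusted p = 0.251). Quantile normalization gave 0.41 (adjusted p = 0.0114). The counting error takes the count as recovered, which is fixed only up to a factor per gene. That factor is unsettled for Cers6, whose implied length exceeds its longest transcript.

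Cers2 took a larger share of the ceramide synthase FPKM in the SGFD libraries, though its own level did not pass the test. Its share of the summed FPKM of Cers1 to Cers6 was 68.2%, 67.5% and 67.6% with CD and 74.4%, 72.1% and 71.9% with SGFD. The groups did not overlap, and the share went from 67.8% ± 0.337 to 72.8% ± 1.37 (SD, n = 3 each; exact two-sided permutation test, p = 0.1, the smallest possible; 0.15 adjusted over 3 shares). Cers5 went from 26.6% ± 0.233 to 23.2% ± 1.49 of the sum. Cers4, a paralog outside the 10 genes that uses long-chain fatty acids, went from 4.72% ± 0.198 to 2.75% ± 0.126. Cers4 itself fell from 5.37 ± 0.186 to 2.84 ± 0.201 FPKM, with a log2 difference of -0.73 ± 0.08 (SE; limma, adjusted p = 5.14e-05) that was called under all 3 scalings. Cers1 was listed at 0 in all libraries and Cers3 had at most 4 fragments in any. The longest transcript has 2216 bases for Cers2, 2775 for Cers5 and 9475 for Cers4. These shares do not remove the trend with transcript length given below, and the part of length was not tested.

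**Figure D2:**
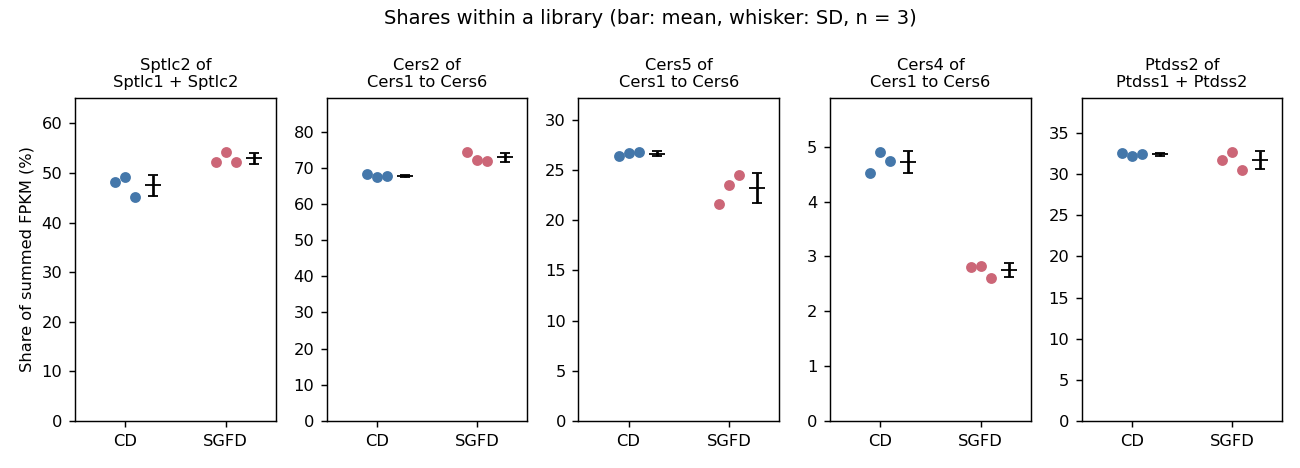
Share of the summed FPKM of a gene family (y axis, percent, from 0) in each CD and SGFD library (points), with the mean and SD. Sptlc2 and Cers2 take a larger share in every SGFD library than in any CD library, Cers5 and Cers4 a smaller one, and the Ptdss2 shares overlap.

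Promoter windows are shown for Sptlc2, which rose, for Kdsr and Cers5, which fell, and for the abundant Cers2, which did not pass. Each holds 250 bases before and 50 bases after the transcription start that RefSeq gives on GRCm38.p6, 5′ to 3′ on the strand of the gene. Capitals mark matches on either strand to the GC box (GGGCGG), the CCAAT box (CCAAT) and the E box (CACGTG, which reads the same on both strands); neighbouring GC boxes can overlap. The windows are chr12:87388306-87388605 (minus) for Sptlc2, chr1:106759693-106759992 (minus) for Kdsr, chr15:99772466-99772765 (minus) for Cers5 and chr3:95314940-95315239 (plus) for Cers2, the first of 2 entries for that gene.
Sptlc2: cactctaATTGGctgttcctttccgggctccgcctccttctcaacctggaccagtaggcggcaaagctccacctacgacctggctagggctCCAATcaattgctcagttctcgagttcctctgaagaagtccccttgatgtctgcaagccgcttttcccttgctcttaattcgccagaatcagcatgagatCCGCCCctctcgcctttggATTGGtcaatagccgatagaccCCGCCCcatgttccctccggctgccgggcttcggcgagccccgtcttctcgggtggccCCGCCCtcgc
Kdsr: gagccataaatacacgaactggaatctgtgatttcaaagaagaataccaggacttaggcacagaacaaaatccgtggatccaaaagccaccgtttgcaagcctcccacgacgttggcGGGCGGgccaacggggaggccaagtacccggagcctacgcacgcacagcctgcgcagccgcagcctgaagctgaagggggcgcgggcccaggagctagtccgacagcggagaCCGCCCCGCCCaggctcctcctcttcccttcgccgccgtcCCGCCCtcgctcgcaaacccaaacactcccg
Cers5: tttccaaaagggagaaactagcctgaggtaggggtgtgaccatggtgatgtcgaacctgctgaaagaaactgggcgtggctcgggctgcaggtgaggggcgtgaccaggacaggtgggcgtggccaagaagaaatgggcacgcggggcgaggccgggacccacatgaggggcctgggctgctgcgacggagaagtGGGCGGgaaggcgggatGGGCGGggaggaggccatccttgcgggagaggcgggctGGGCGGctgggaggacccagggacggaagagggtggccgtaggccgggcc
Cers2: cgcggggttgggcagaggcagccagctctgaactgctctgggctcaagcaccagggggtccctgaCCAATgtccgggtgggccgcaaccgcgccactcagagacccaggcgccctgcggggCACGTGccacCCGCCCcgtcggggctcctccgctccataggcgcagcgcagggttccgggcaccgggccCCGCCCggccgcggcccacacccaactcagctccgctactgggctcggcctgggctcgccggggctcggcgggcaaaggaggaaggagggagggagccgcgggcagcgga

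A window was found for 9 of the 10 genes, all but Ptdss1. GC boxes were in 7 of these 9, against 66.2% of the promoters of tested genes and 35.9% of all 27025 promoters. CCAAT boxes were in 5 of 9 (39.4% of tested and 37.9% of all) and E boxes in 3 of 9, Cers2, Cers6 and Degs1 (10.8% and 7.24%). Sptlc2 had CCAAT boxes at -243, -159 and -40 from the start and GC boxes at -59, -18 and 40. Sptlc1, Sptssa and Cers2, which did not pass the test, also held both motifs. Kdsr and Cers5 held GC boxes and no other motif searched, as did Ptdss2, which did not pass. None of the 9 windows held the letters of a cAMP response element (TGACGTCA, 1.88% of all promoters), the ATF4 composite element (TGATGNAA, 4.06%), a sterol regulatory element (TCACNCCAC, 1.22%) or a TATA box (TATAAA, 14.2%). These matches describe the letters in these windows and identify no binding site.

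Neither phosphatidylserine synthase passed the test. Ptdss1, which uses phosphatidylcholine (chromosome 13, 66932830 to 66998401, plus strand), had 19.0, 18.5 and 19.8 FPKM with CD and 19.1, 18.2 and 20.7 FPKM with SGFD. Ptdss2, which uses phosphatidylethanolamine (chromosome 7, 141122382 to 141157606, plus strand), had 9.21, 8.77 and 9.51 FPKM with CD and 8.90, 8.86 and 9.12 FPKM with SGFD. The SGFD values reached below and above the CD values for Ptdss1 and lay within the CD range for Ptdss2. Differences were 0.01 ± 0.06 (SE; interval -0.12 to 0.15; limma, adjusted p = 0.851) for Ptdss1 and -0.03 ± 0.07 (SE; interval -0.17 to 0.12; limma, adjusted p = 0.717) for Ptdss2. Ptdss2 was called higher after quantile normalization alone (0.17, adjusted p = 0.0494). It held 32.4% ± 0.226 of the summed FPKM of the pair with CD and 31.7% ± 1.09 with SGFD (SD, n = 3 each; exact two-sided permutation test, p = 0.4, also 0.4 adjusted over 3 shares). Pisd, which converts phosphatidylserine to phosphatidylethanolamine in mitochondria, averaged 22.2 ± 0.499 FPKM on CD and 23.5 ± 2.01 FPKM on SGFD, which did not pass (limma, adjusted p = 0.34).

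**Figure D3:**
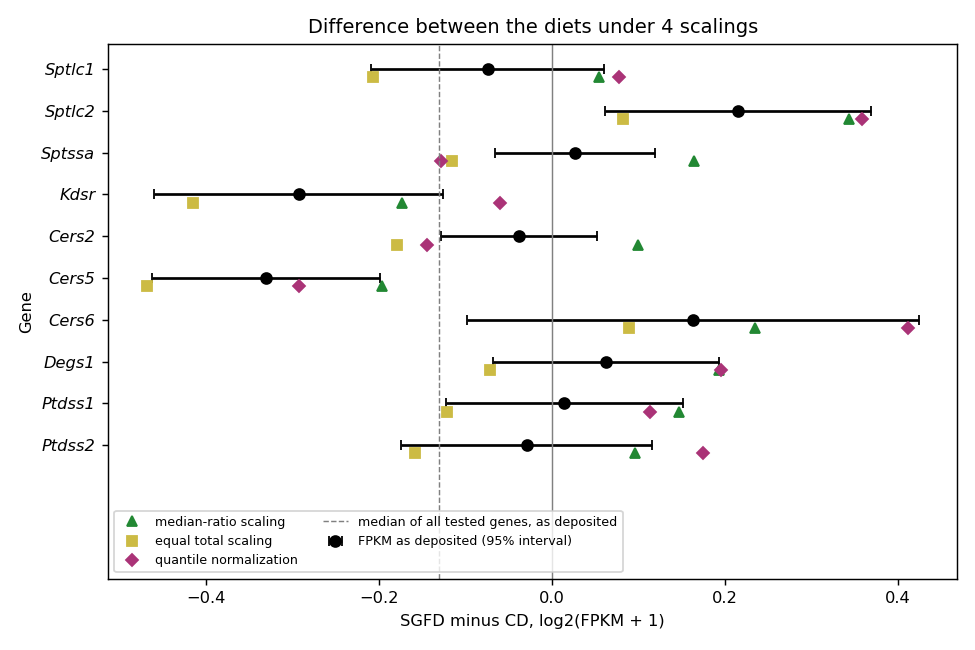
Difference between the diets (x axis, SGFD minus CD in log2(FPKM + 1)) for each of the 10 genes, as deposited with its 95% interval (black) and after 3 scalings (coloured); the dashed line is the median of all tested genes as deposited, -0.13. Cers5 and Kdsr are left of 0 in each and Sptlc2 and Cers6 right of 0, while Sptlc1, Sptssa, Cers2, Degs1, Ptdss1 and Ptdss2 change side with the scaling.

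By level, the order with CD was Sptssa, Cers2, Cers5, Ptdss1, Degs1, Sptlc1, Sptlc2, Ptdss2, Kdsr and Cers6. Among neighbours in that order only Sptlc1 and Sptlc2 overlapped between libraries. On this scale Sptlc2 stood above Sptlc1 with SGFD and overlapped Degs1. Cers2 had a higher mean than 92.2% of tested genes with CD, and Kdsr a higher one than 29.7%. The length behind the values matters for these orders. The fragments and FPKM of Cers6 imply a length of 20987 bases, 2.98 times the longest GENCODE transcript of 7038 bases, whereas for the other 9 genes this ratio was between 0.741 and 1.39, the last for Sptlc1. Per base of the longest transcript Cers6 was still the lowest with either diet, at 2.98 ± 0.268 and 3.74 ± 0.980. Sptlc1, at 18.7 ± 0.592 and 17.7 ± 0.621 on that scale, then stood above Degs1 (15.3 ± 0.341 and 16.0 ± 0.657) and Sptlc2 (12.5 ± 1.06 and 14.6 ± 0.232) with both diets. In fragments Cers6 had 363 to 656 per library and Degs1 564 to 651.

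Over all tested genes the difference between the diets went lower with transcript length, when they were ranked by length into 10 groups of like size: the group with the shortest transcripts had a median log2 difference of 0.13 and the group with the longest -0.38. Kdsr, whose longest transcript has 5518 bases, was at -0.29, and so was the median of genes in its length group (-0.29). Cers5, with 2775 bases, was 0.26 below the median of its length group (-0.07). Sptlc2, with 6710 bases, was 0.50 above the median of its length group (-0.29), in which 65.8% of genes were called lower and 6.24% higher. Sptlc1 and Cers2 each differed by -0.01 from the medians of theirs. Cers6, in the group of the longest transcripts, stood 0.55 above its median (-0.38), and the part of length in these differences was not tested.

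**Figure D4:**
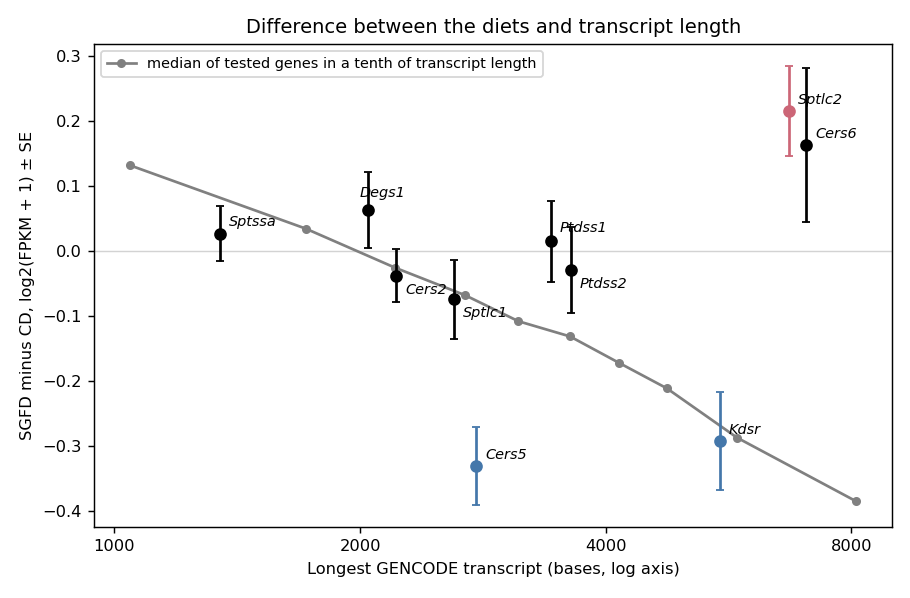
Difference between the diets (y axis, SGFD minus CD in log2(FPKM + 1), with SE) against the length of the longest transcript (x axis, bases, log scale) for the 10 genes; red was called higher, blue lower and black neither, and the grey line joins medians of all tested genes in 10 groups of length. Kdsr sits on the line, Cers5 0.26 below that of its group and Sptlc2 0.50 above.

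The other genes of these lipid pathways were followed in 7 lists, of which 78 genes were tested: 9 were higher and 35 lower, or 11.5% and 44.9%, against 17.7% and 41.8% of all tested genes. None of the 3 scalings takes account of transcript length, and the part of length in the lists was not tested. Regulators of serine palmitoyltransferase were uneven. Ormdl3, whose protein holds the enzyme back when ceramide is plentiful, had 23.5, 23.8 and 22.6 FPKM with CD and 18.8, 17.5 and 14.5 FPKM with SGFD. All SGFD values were lower, and the fall of 27.3% (log2 difference -0.44 ± 0.08 SE; limma, adjusted p = 0.00109) was called under all 3 scalings. Its paralog Ormdl1 fell by 0.26 on the log2 scale (limma, adjusted p = 0.0038), called with equal totals but not after median-ratio scaling or quantile normalization. Ormdl2 averaged 14.0 ± 1.03 FPKM on CD and 15.1 ± 0.588 FPKM on SGFD, and Rtn4, another regulator, 31.9 ± 1.32 and 30.9 ± 0.733 FPKM; neither passed.

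Of the genes that take ceramide onward 6 of 8 tested fell and 0 rose, where 41.8% and 17.7% of all tested genes did. The median of the list was -0.44, and 4 of the 6 were called under all 3 scalings. These were Ugcg, which makes glucosylceramide, Col4a3bp, which carries ceramide to the Golgi, St3gal5, which makes the ganglioside GM3, and B4galt5, which makes lactosylceramide. Ugcg had 12.0, 11.9 and 12.0 FPKM with CD and 8.77, 8.94 and 8.18 FPKM with SGFD (limma, adjusted p = 0.000306). Col4a3bp had 13.8, 12.5 and 13.5 FPKM with CD and 8.75, 9.63 and 9.82 FPKM with SGFD (limma, adjusted p = 0.000349). For both genes each SGFD library was below each CD library, by 27.9% and 29.1% in the means. St3gal5 fell from 2.78 ± 0.2 to 1.27 ± 0.435 FPKM (SD, n = 3 each), 54.2% lower, and B4galt5 from 5.57 ± 0.514 to 3.56 ± 0.361 FPKM. Against the medians of their length groups Ugcg stood at -0.26, Col4a3bp at -0.17, St3gal5 at -0.72 and B4galt5 at -0.35.

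Of 18 tested genes for the breakdown of sphingolipids 4 rose and 4 fell, where 17.7% and 41.8% of all tested genes did. The median of the list was -0.01, and the balance was 9 higher and 2 lower after median-ratio scaling but 2 and 7 with equal totals. The rises included lysosomal enzymes. Gla (alpha-galactosidase A) rose from 3.44 ± 0.19 to 6.54 ± 0.855 FPKM (SD, n = 3 each), 1.90-fold, and Hexa, the hexosaminidase alpha chain, from 61.1 ± 1.25 to 78.5 ± 8.09 FPKM (limma, adjusted p = 0.000109 and 0.00125), both called under all 3 scalings. Gba2, the glucosylceramidase outside the lysosome, fell from 15.7 ± 0.873 to 10.7 ± 0.62 FPKM (limma, adjusted p = 0.000137), also under all 3. Galc, which degrades galactosylceramide, fell by 0.45 on the log2 scale (limma, adjusted p = 0.00447), though not after quantile normalization (adjusted p = 0.151).

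In the list of sphingosine 1-phosphate, the signalling lipid that steers blood cells out of tissues, 7 of 11 tested genes fell and 1 rose. Over all tested genes 41.8% fell and 17.7% rose. Only 1 of the 7 was called under all 3 scalings, and after median-ratio scaling or quantile normalization 1 gene was lower and 1 higher. The fall that held was that of Spns2, the exporter, with 87.1, 83.4 and 85.8 FPKM with CD and 53.9, 58.3 and 51.2 FPKM with SGFD. All SGFD values were lower and the mean was down by 36.2%, a log2 difference of -0.64 ± 0.05 (SE; limma, adjusted p = 6.71e-06). The lyase Sgpl1 and the receptor S1pr4 fell by 0.25 and 0.21 on the log2 scale, neither of them after median-ratio scaling or quantile normalization. The receptor S1pr1 averaged 5.96 ± 0.288 FPKM on CD and 6.07 ± 1.26 FPKM on SGFD, short of the threshold.

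Of 16 tested genes of other phospholipids 2 rose and 5 fell, where 17.7% and 41.8% of all tested genes did. The balance became 5 and 4 after median-ratio scaling. Etnk1 and Pcyt2, consecutive enzymes of phosphatidylethanolamine synthesis from ethanolamine, fell from 40.2 ± 0.733 to 29.8 ± 1.34 FPKM and from 31.6 ± 0.694 to 23.5 ± 1.07 FPKM (SD, n = 3 each). Cds2, which makes CDP-diacylglycerol, fell from 10.9 ± 0.164 to 6.10 ± 0.349 FPKM, and Pgs1, which uses that lipid on the way to cardiolipin, rose from 19.8 ± 0.413 to 27.1 ± 0.733 FPKM. These 4 were called under all 3 scalings. Against the medians of their length groups Etnk1 stood at -0.13, Pcyt2 at -0.45, Cds2 at -0.36 and Pgs1 at 0.54. Of the carriers of phosphatidylserine 7 of 11 tested fell and 1 rose, against the same 41.8% and 17.7%. The median of the list was -0.26, and after median-ratio scaling or quantile normalization 5 were lower and 1 higher. The exchangers Osbpl8 and Osbpl5, which bring phosphatidylserine to the plasma membrane, fell from 26.4 ± 0.155 to 16.8 ± 1.09 FPKM and from 5.71 ± 0.327 to 3.46 ± 0.171 FPKM, and the flippase genes Atp11b and Atp8a1 fell by 0.34 and 0.59 on the log2 scale. All 4 carriers were called under the 3 scalings. Against the medians of their length groups Osbpl8 stood at -0.24, Osbpl5 at -0.42, Atp11b at -0.06 and Atp8a1 at -0.20. Plscr1, a scramblase family gene, rose from 15.4 ± 0.336 to 19.8 ± 2.17 FPKM, a call lost with equal totals.

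Of 9 tested genes that elongate the acyl chains 1 rose and 3 fell, where 17.7% and 41.8% of all tested genes did. None of these 4 kept its call under all 3 scalings, and the balance was 3 and 0 after median-ratio scaling. Tecr, the last reductase of the elongation cycle, rose from 149 ± 5.46 to 166 ± 0.567 FPKM as deposited (limma, adjusted p = 0.00585), and Elovl6 fell from 14.2 ± 0.25 to 11.8 ± 0.531 FPKM. Elovl1, the elongase for the chains that Cers2 uses, averaged 18.1 ± 1.15 FPKM on CD and 19.3 ± 0.949 FPKM on SGFD, short of the threshold.

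**Figure D5:**
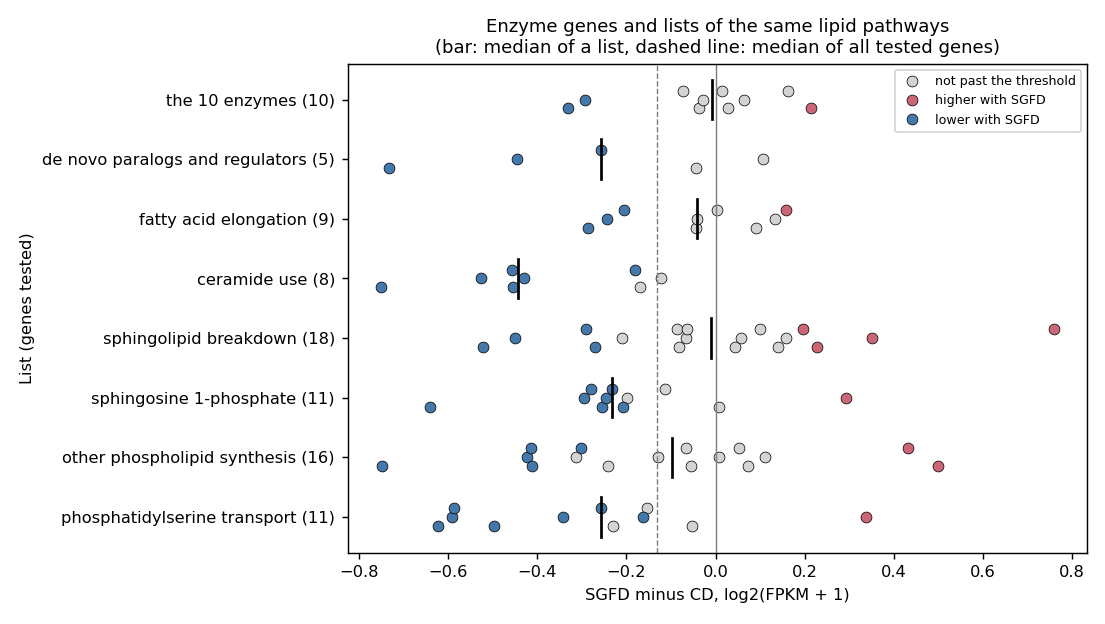
Difference between the diets (x axis, SGFD minus CD in log2(FPKM + 1)) of each tested gene (points; red higher, blue lower, grey not past the threshold) in the 10 enzymes and the 7 lists (rows, with genes tested). The bar is the median of a list and the dashed line that of all tested genes, -0.13; the medians are -0.01 for the 10 enzymes and -0.44 for ceramide use.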

How the data were processed

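Libraries of poly(A) RNA from the sorted cells kept strand, per the labels' protocols. Tools listed in the submitters' processing notes are HISAT2, StringTie and fastp, with GRCm38 and mm10 as builds; versions and annotation are not given in the sources used here. Each deposited table holds 1 value per gene and library, taken as FPKM from the values, since no header names the unit. The authors' FPKM values of 99.99% of genes above 0 came out as whole fragments (tolerance 0.02), fixed up to a factor per gene. Of the rows, 27 have dates for names; they stayed in the tests. Analysis used limma 3.58.1 in R 4.3.3 on log2(FPKM + 1), with trend and robust moderation and all 6 libraries; such differences understate the change of low genes. Coordinates and transcript lengths are from GENCODE M21 (GRCm38), matched for 96.9% of tested genes, and promoters from RefSeq. The 10 genes and the lists were chosen with earlier results of these data known. Named in the lists were up to 4 genes of smallest p that passed without overlap, paralogs, regulators and genes that did not pass. Alternatives changed the pseudocount, the filter, the scaling and the replicate block, and left out each library. No library was a copy of another: recovered fragments differed by a chi-square of 2.83 to 13.8 per gene between replicates.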

Additional observations from a re-analysis of the deposited data

How the results depend on the processing

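The counts of the 10 genes changed most with scaling. After median-ratio scaling 3 were higher and 1 lower, with equal totals 0 and 5, and after quantile normalization 4 and 3, in place of 1 and 2. The numbers over all tested genes went from 1875 higher and 4438 lower to 3054 and 2844 with median-ratio scaling, to 1034 and 6334 with equal totals and to 2261 and 2552 after quantile normalization. In the 7 lists 9 were higher and 35 lower as deposited, 20 and 19 with median-ratio scaling, 4 and 49 with equal totals, and 16 and 17 after quantile normalization. Without 1 library at a time, 0 to 1 of the 10 genes were higher and 2 lower; the Cers2 share was 4.28 to 5.52 points higher and the Sptlc2 share 4.20 to 6.23 points higher with SGFD. Per base of the longest transcript, an alternative chosen after seeing the data, the Cers2 share was 3.69 points higher, in place of 5.07. Differences of genes without a call changed sign: Sptlc1 to 0.055 with median-ratio scaling and 0.077 after quantile normalization, Cers2 to 0.10 and Ptdss2 to 0.10 with median-ratio scaling, Ptdss2 to 0.17 after quantile normalization, Sptssa to -0.12 with equal totals and -0.13 after quantile normalization, and Degs1 to -0.071 and Ptdss1 to -0.12 with equal totals. Without 1 library at a time Sptssa lay between -0.0052 (without SGFD replicate 3) and 0.050, and Ptdss1 between -0.033 (without SGFD replicate 3) and 0.055, with -0.0076 without CD replicate 2. The former sign changes came with another scaling and the latter with a library left out, and their cause was not tested. Without the filter, with a filter of 5 FPKM or with a pseudocount of 0.1 the 3 calls among the 10 genes held; Cers6 was not tested at 5 FPKM, nor without CD replicate 1, SGFD replicate 1 or SGFD replicate 2. Same-numbered libraries did not deviate together (correlations -0.01, -0.23 and -0.13, against -0.09 to 0.22 for libraries with different numbers). Deviations within a group of 3 are tied to each other, so these values show no pairing by number but cannot exclude one. The fit with the replicate block called 1 gene higher and 2 lower among the 10, and 1706 higher and 4087 lower over all. Among the 10, Cers6 had the lowest recovered fragment count in any library, 363. At that count, which is fixed only up to a factor, counting error is 5.25% against a coefficient of variation of 26.2% with SGFD.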

Other observations

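Below the filter on low values, 4 genes of the same pathways differed between the diets when every gene above 0 was tested. Sgms2, a sphingomyelin synthase of the plasma membrane, had 0.149, 0.0987 and 0.0684 FPKM with CD and 0.767, 0.730 and 1.11 FPKM with SGFD (limma, adjusted p = 0.000799), from 9 to 20 fragments against 102 to 146. Its paralog Sgms1 went from 9.20 ± 0.219 to 6.50 ± 1.25 FPKM (SD, n = 3 each). Degs2, the paralog of Degs1 that also makes phytoceramide, had at most 2 fragments in a CD library and 14 to 17 in an SGFD library (limma, adjusted p = 0.000816). Sphk1, a kinase that makes sphingosine 1-phosphate, had 25 to 37 fragments with CD and 8 to 12 with SGFD (limma, adjusted p = 0.00343), and the neutral sphingomyelinase gene Smpd3 had 13 to 21 and 3 to 10 (limma, adjusted p = 0.0344). The 3 SGFD values lay wholly on one side of the CD values for each of these 4 genes, which were picked after their values were seen. Granulocyte and monocyte markers were higher in the same SGFD libraries, and their part in these values was not tested.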
